A study of Rattus norvegicus with 15 samples.

Results

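miR-210, printed on the array as rno-miR-210, was followed through 14 days of nerve injury in adult male rats. It is 1 of the 350 rat miRNAs on the array and was taken by its name in the array annotation, with earlier results of these data known. The 15 arrays hold total RNA of sciatic nerve in 5 groups of 3, namely nerve taken on days 1, 4, 7 and 14 after injury and nerve with no injury, called day 0. The submitters describe the injury both as a resection with proximal nerve tissue taken and as a crush with the damaged section taken, and the word injury is used here for either. All groups are labelled with the same tissue, sex and adult age (day 0 also as the site of injury, although its nerves were not injured), and no drug, transgene or other treatment is named for any of them. The labels name neither the strain nor the number of animals behind an array, and nothing in them says whether replicates came from separate animals, so the p-values given here rest on the differences among these samples alone, which may be technical.

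MicroRNAs (miRNAs) are short RNAs that pair with messenger RNAs, mainly through a seed near their 5′ end, and lower the output of those messages. miR-210 is the miRNA most often found to rise when cells lack oxygen: hypoxia-inducible factor (HIF) binds near its gene and raises its transcription. Its known targets include ISCU, a scaffold for building the iron-sulphur clusters of mitochondrial enzymes, and EFNA3, a membrane ligand linked to vessel growth, and its rise goes with reduced mitochondrial respiration. In cut nerve, macrophages of the tissue bridge are known to sense low oxygen and to attract blood vessels that Schwann cells then follow. The arrays measure neither oxygen, HIF nor target messages, so the name of miR-210 as a hypoxia miRNA is background here and was not checked.

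RefSeq (build GRCr8) lists both arms of the rat hairpin, shown here because the array name gives no arm. In the first 3 lines capitals mark the seed, bases 2 to 8. In the hairpin they mark the 3′ arm, the one meant by the plain name miR-210 in older naming. The third line is miR-147, the other rat miRNA whose seed begins with the same 6 bases.
rno-miR-210-3p: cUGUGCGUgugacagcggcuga
rno-miR-210-5p: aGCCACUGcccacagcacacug
rno-miR-147: gUGUGCGGaaaugcuucugcua
Mir210 hairpin: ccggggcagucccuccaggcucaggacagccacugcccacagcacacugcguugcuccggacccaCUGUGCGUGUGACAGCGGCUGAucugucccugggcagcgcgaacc

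Among 693 mature rat miRNA names in that table, 0 others shared all 7 seed bases of miR-210-3p, and the longest run of bases shared with any other was 8 of 22. miR-147 was detected on 0 of the 15 arrays. In GRCr8 the Mir210 gene lies on chromosome 1, minus strand, within the span of the long non-coding RNA gene LOC102553043 and between the protein-coding genes Rassf7 and Phrf1. The hairpin gene Mir3574 spans the same place on the opposite strand. The array was designed on an earlier build, so no coordinates are given.

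The scanner software detected 200 to 239 of the 350 miRNAs on each array except day 14 replicate 3, which stood apart. It had 172 detected, and its negative control spots averaged -8.54 in intensity, against -1.03 to 1.19 on the others. This array was also alone on its slide and scan date, so the day 14 group was not of 1 slide or 1 scan date. It was kept. Without it the median change of all tested miRNAs against day 0 was -0.04, -0.11 and -0.16 on days 1, 4 and 7, against -0.26, -0.26 and -0.32 with it. The day 1 calls without it were 58 higher and 68 lower, against 39 and 101 with it, and on day 14 against day 4 they were 17 and 55, against 32 and 57. The day 1 arrays stood apart in another control. Their bright corner control spots averaged 86.1 to 113 in intensity, against 868 to 2320 on the arrays of all other groups. What this difference means for the comparisons with day 1 was not tested. The RNA came from whole nerve, so fewer cells of a type and less miRNA per cell cannot be told apart.

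miR-210 was read by 2 probes of 10 spots each. The scanner software called it detected on all 15 arrays. The background-subtracted intensity, before any scaling between arrays and averaged over both probes, was 56.5, 67.7 and 73.2 on day 0, 68.8, 70.8 and 62.1 on day 1, 59.6, 56.1 and 56.6 on day 4, 44.5, 36.9 and 44.6 on day 7, and 53.0, 54.3 and 53.5 on day 14. The 3 day 7 arrays were the lowest of all 15, with no overlap with any other group, and the day 14 arrays lay below every array of days 0, 1 and 4. On unscaled intensity such a lack of overlap was found for 71.9%, 65.8%, 66.7% and 46.3% of tested miRNAs between day 7 and days 0, 1, 4 and 14, and for 46.3%, 58.9% and 65.8% between day 14 and days 0, 1 and 4. By group the intensity was 65.8 ± 8.51 on day 0, 67.2 ± 4.59 on day 1, 57.4 ± 1.89 on day 4, 42.0 ± 4.39 on day 7 and 53.6 ± 0.675 on day 14 (SD, n = 3). The means of days 1 and 0 differed by less than the SD of either group.

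The reading of probe A_26_P00001472 over that of probe A_26_P00001473 kept within 1.58 to 1.94 on the 15 arrays, and their log2 levels had r = 0.989 over arrays on which both share the RNA and the scaling. Probe A_26_P00001472 read 56.7, 48.7 and 56.2 on day 7, against 75.7, 69.9 and 71.4 on day 4. Probe A_26_P00001473 read 32.3, 25.1 and 33.0 on day 7, against 43.5, 42.3 and 41.9 on day 4. Each probe thus had its 3 day 7 arrays below its 3 day 4 arrays. That was also so on the scaled level, where 45.8% of 531 probes had no overlap between these days. Spots of 1 probe on 1 array varied with a coefficient of variation of 4.30% to 18.9%, with a median of 8.35%. The widest spread was on day 14 replicate 3, where only 3 and 0 of the 10 spots per probe were called well above background although the miRNA was called detected. Of the 300 miR-210 spots, 10 were flagged as outliers by the software and left out, 3 of them on that array.

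**Figure D1:**
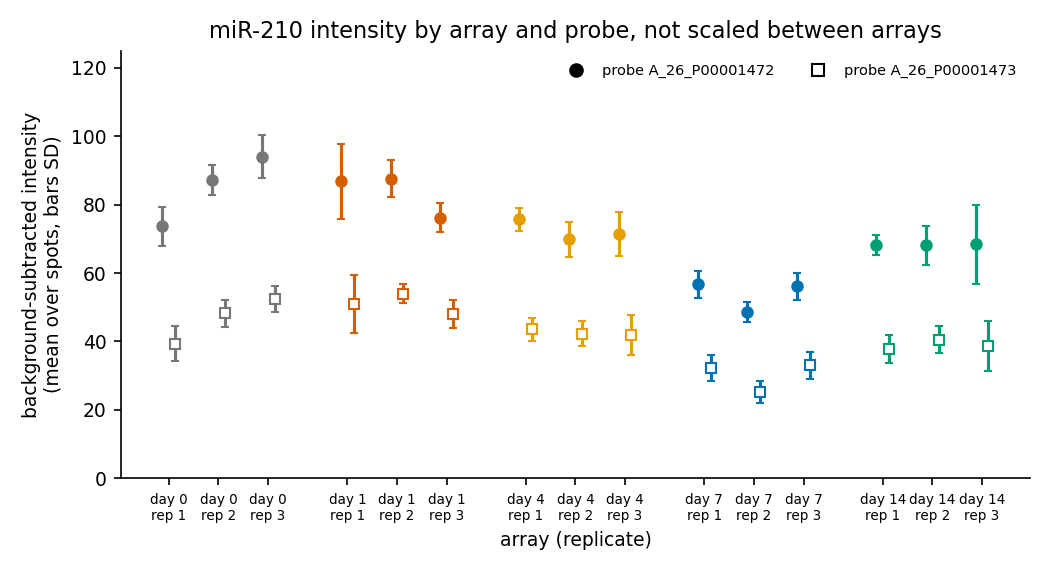
Background-subtracted intensity of miR-210 on each of the 15 arrays, as mean and SD over the spots of each of its 2 probes, with no scaling between arrays. Filled circles are probe A_26_P00001472 and open squares probe A_26_P00001473; the day 7 arrays are lowest for both, at 48.7 to 56.7 and 25.1 to 33.0.

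Arrays differ in how bright they are as a whole, so each value was divided by its array's 75th percentile over the 164 miRNAs detected on all arrays. That percentile was 605 to 639 on day 0, 533 to 586 on day 1, 549 to 571 on day 4 and 649 to 687 on day 7. On day 14 it was 914, 627 and 916. The scaled level of miR-210 was 8.85%, 11.2% and 12.0% of the percentile on day 0, 11.8%, 12.6% and 11.6% on day 1, 10.4%, 10.2% and 10.3% on day 4, 6.76%, 5.69% and 6.49% on day 7, and 5.80%, 8.66% and 5.85% on day 14. On this scale the day 7 and day 14 arrays lay below every array of days 0, 1 and 4, day 14 replicate 2 only just (8.66%, against 8.85% for day 0 replicate 1). Groups that did not overlap were common, being found for 74.9% of tested miRNAs between days 7 and 0, 62.8% between days 14 and 0, 72.3% between days 7 and 1, 54.5% between days 14 and 1, 50.6% between days 7 and 4, and 51.5% between days 14 and 4. The day 14 arrays spread far more after scaling than before it, since their intensities were nearly equal and their percentiles were not.

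**Figure D2:**
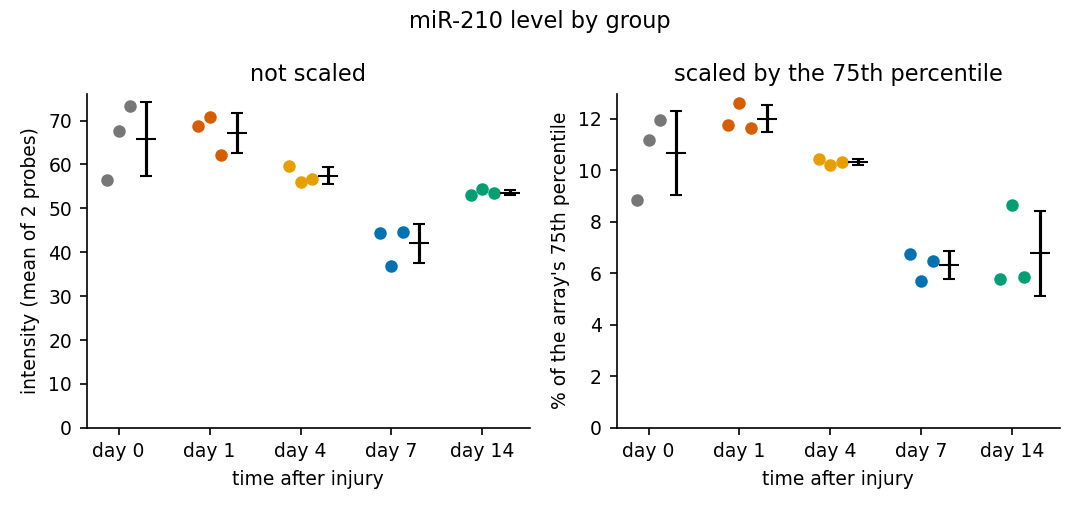
miR-210 on each array (points) with group mean and SD (black, n = 3), on the left as intensity with no scaling between arrays and on the right as a percentage of the array's 75th percentile. Day 7 averaged 42.0 in intensity and 6.31% scaled, against 65.8 and 10.7% on day 0; day 14 is between day 4 and day 7 on the left and spreads from 5.80% to 8.66% on the right.

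In log2 of the scaled level, the mean was -3.24 ± 0.23 on day 0, -3.06 ± 0.06 on day 1, -3.28 ± 0.02 on day 4, -3.99 ± 0.13 on day 7 and -3.91 ± 0.33 on day 14 (SD, n = 3). The order from high to low was therefore day 1, day 0, day 4, day 14 and day 7. One limma model of the 5 groups was fitted to 231 tested miRNAs, with Benjamini-Hochberg adjustment in each comparison and a threshold of 0.05. Over all 5 groups miR-210 varied (limma F test, adjusted p = 0.000135), as did 86.1% of tested miRNAs. Of the 10 pairs of groups, 6 passed, namely each pair of day 7 or day 14 with day 0, 1 or 4. The other 4, which include neighbours in the order except day 14 and day 4, did not pass.

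On day 7 miR-210 was 1.68-fold lower than in uninjured nerve, a log2 change of -0.75 ± 0.15 (standard error; limma, adjusted p = 0.000634), with all 3 day 7 arrays below all 3 day 0 arrays. In that comparison 62.8% of tested miRNAs passed, 45.5% as lower and 17.3% as higher. This split depended on the scaling: 40 were higher and 105 lower here, 82 and 63 with the 75th percentile taken over all miRNAs, 59 and 74 with quantile normalisation, 42 and 87 without scaling, and 55 and 61 in the deposited table. The median change of all tested miRNAs was -0.32, and miR-210 minus that median was -0.43, or -0.61 to -0.43 over 5 scalings. On day 14 it was 1.59-fold lower than on day 0 (-0.67 ± 0.15, adjusted p = 0.00162), where 66.7% of tested miRNAs passed, 16% as higher and 50.6% as lower. There too the split turned, with 37 higher and 117 lower here, 70 and 54 with the percentile over all miRNAs, 61 and 83 with quantile normalisation, 64 and 42 without scaling, and 54 and 69 in the deposited table. The day 14 call was lost without scaling between arrays (-0.29, adjusted p = 0.0508) and where the percentile was taken over all miRNAs (-0.31, adjusted p = 0.0592). That scaling also gave a smaller day 7 change, which still passed (-0.39, adjusted p = 0.0216). Without day 14 replicate 3, 189 miRNAs entered the scaling, and the changes against day 0 were -0.59 on day 7 and -0.48 on day 14, both passing (adjusted p = 0.005 and 0.0263).

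Among neighbouring times, only day 7 against day 4 passed. On day 7 miR-210 was 1.64-fold lower than on day 4, at 6.76%, 5.69% and 6.49% on day 7 against 10.4%, 10.2% and 10.3% on day 4, with a log2 change of -0.71 ± 0.15 (limma, adjusted p = 0.0137). Of the 231 miRNAs 14 passed (6.06%), 3 higher (1.3%) and 11 lower (4.76%), the median change was -0.05, and 8 had a lower fitted change than miR-210. With other scalings 11 were higher and 11 lower (percentile over all miRNAs), 18 and 16 (quantile), 24 and 7 (none), or 8 and 14 (deposited table), and 74 passed when days 7 and 4 were fitted alone. miR-210 minus the median was -0.69 to -0.62 over these 5 scalings. The call was lost when day 4 replicate 1 (-0.70, adjusted p = 0.0614), day 4 replicate 3 (-0.71, adjusted p = 0.0602) or day 7 replicate 2 (-0.64, adjusted p = 0.0633) was left out, and with the software's total signal (-0.71, adjusted p = 0.103). Days 4 and 7 were scanned on 1 date but lay on separate slides, so slide and time cannot be told apart for this pair. The same is so for each comparison with day 0 or day 1, each of which had a slide and a scan date of its own. It holds too for day 14 against day 4, which shared no slide.

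Set against day 1, miR-210 was 1.90-fold lower on day 7 (-0.93 ± 0.15, adjusted p = 0.000226) and 1.80-fold lower on day 14 (-0.85 ± 0.15, adjusted p = 0.000424), the widest of the 10 pairs in this fit. In these comparisons 58% and 55.4% of tested miRNAs passed in either direction, with medians of -0.08 and -0.07. Without scaling these differences were -0.68 (adjusted p = 0.000222) and -0.32 (adjusted p = 0.0212), and the medians were 0.17 and 0.46. On day 14 it was 1.55-fold lower than on day 4 (-0.63 ± 0.15, adjusted p = 0.00489, with 38.5% of tested miRNAs passing). Without scaling between arrays that last difference was -0.10 (adjusted p = 0.467).

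No injured group passed as higher than day 0 under this scaling. On day 1 the change was 0.18 ± 0.15 (95% interval -0.14 to 0.50, adjusted p = 0.316), with overlapping groups, and 60.6% of tested miRNAs passed there. It passed as a rise where the percentile covered all miRNAs (0.36, adjusted p = 0.0322), with quantile normalisation (0.32, adjusted p = 0.0291), in the deposited value table (0.43, adjusted p = 0.0238) and when day 14 replicate 3 was left out (0.39, adjusted p = 0.0438). Without scaling it was 0.04 (adjusted p = 0.779). The day 1 median of all tested miRNAs was -0.26, and miR-210 stood 0.44 above it. Against the median of the same setting miR-210 stood 0.40 above with quantile normalisation and 0.49 above in the deposited table. The other percentile scaling and no scaling match the first value nearly by construction. Day 4 differed from day 0 by -0.04 ± 0.15 (95% interval -0.36 to 0.29, adjusted p = 0.833), where 65.8% of tested miRNAs passed. Its sign turned where the percentile covered all miRNAs (0.28) and without day 0 replicate 3 (0.05) or day 14 replicate 3 (0.11), and it passed in none of the 26 alternatives run. Day 4 minus day 1 was -0.22 ± 0.15 (adjusted p = 0.245), where 51.5% of tested miRNAs passed; this passed with quantile normalisation (-0.33, adjusted p = 0.0264) and in the deposited table (-0.46, adjusted p = 0.0184).

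**Figure D3:**
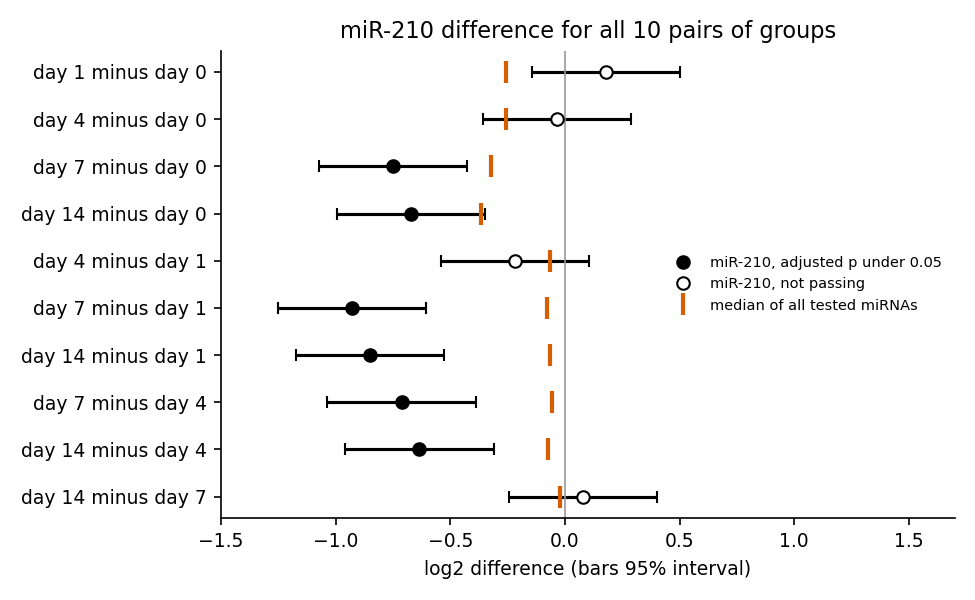
Log2 difference of miR-210 for the 10 pairs of groups (circles, bars 95% intervals; filled where the adjusted p was under 0.05), with the median difference of the 231 tested miRNAs (orange ticks). The 6 filled circles, from -0.93 to -0.63, are the pairs of day 7 or day 14 with day 0, 1 or 4.

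**Figure D4:**
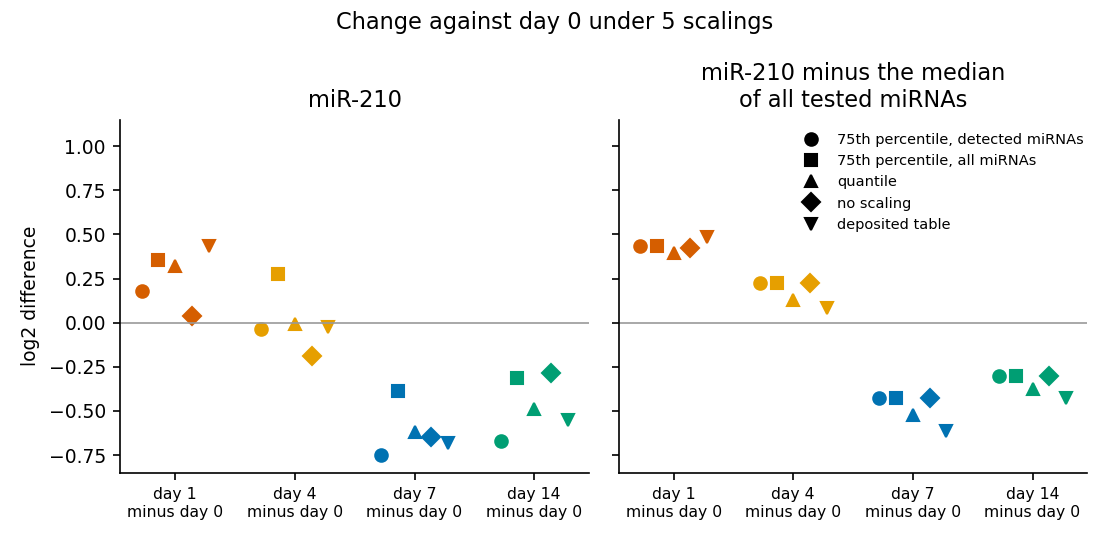
Change of miR-210 against day 0 under 5 scalings, on the left as fitted and on the right after subtracting the median change of all tested miRNAs. Day 7 is below 0 under each, from -0.75 to -0.39 as fitted and -0.61 to -0.43 against the median. Day 1 ranges from 0.04 to 0.43 as fitted and lies 0.40 to 0.49 above the median. On the right the percentile scalings and no scaling nearly match by construction.

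Day 14 minus day 7 was 0.08 ± 0.15 on the scaled level (95% interval -0.25 to 0.40, adjusted p = 0.739), with overlapping arrays. The unscaled intensities did not overlap, at 53.0, 54.3 and 53.5 on day 14 against 44.5, 36.9 and 44.6 on day 7, a log2 difference of 0.36 (adjusted p = 0.0253). Without scaling 82 of 231 miRNAs passed in that comparison (35.5%), 72 higher and 10 lower, and 46.3% did not overlap. On the scaled level 13.9% of tested miRNAs passed. These are the groups that share a slide: within it, with 2 day 14 arrays and 3 day 7 arrays, the scaled difference was 0.17 (adjusted p = 0.594). Among 13 alternatives it passed only without scaling.

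Fitted singly among 531 probes, both probes passed as lower on day 7 against day 0. The change was -0.76 ± 0.14 for A_26_P00001472 (limma, adjusted p = 0.000774) and -0.73 ± 0.17 for A_26_P00001473 (adjusted p = 0.00325), in a comparison where 53.7% of probes passed. Against day 4 they changed by -0.68 ± 0.14 (adjusted p = 0.0441) and -0.76 ± 0.17 (adjusted p = 0.0492), where 2.26% of probes passed. On day 14 against day 0 the changes were -0.69 ± 0.14 (adjusted p = 0.00157) and -0.63 ± 0.17 (adjusted p = 0.00824), with 55.9% of probes passing, and without scaling A_26_P00001472 passed (-0.31, adjusted p = 0.0202) and A_26_P00001473 did not (-0.25, adjusted p = 0.118). For A_26_P00001473 these groups overlapped on the scaled log2 level, with -3.95 on day 14 replicate 2 and -4.02 on day 0 replicate 1. They overlapped unscaled too, at 40.6 and 39.4 on these arrays. On day 1 neither probe passed, at 0.12 ± 0.14 (adjusted p = 0.498) and 0.28 ± 0.17 (adjusted p = 0.194), although for A_26_P00001473 all 3 day 1 arrays lay above all 3 day 0 arrays. In that comparison 48.6% of probes had groups that did not overlap and 51% passed.

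Other miRNAs tied to oxygen were taken as 2 lists, also chosen with earlier results known. The first held miR-210 and 11 miRNAs reported to rise in hypoxic cultured cells, of the miR-23, miR-24, miR-26, miR-27, miR-103/107 and miR-181 families. All 11 were tested, and none was called higher than day 0 at any time, while 5 were called lower on day 1, 9 on day 4, 8 on day 7 and 5 on day 14. Of all tested miRNAs 43.7% were called lower and 16.9% higher on day 1, and 45.5% lower and 20.3% higher on day 4. On day 7 the shares were 45.5% lower and 17.3% higher, and on day 14 they were 50.6% and 16%. These shares moved with the scaling: day 1 had 39 higher and 101 lower here, 57 and 85 where the percentile covered all miRNAs, 57 and 87 with quantile normalisation and 48 and 61 in the deposited table. Day 4 had 47 and 105 here, 74 and 74, 68 and 86, and 61 and 76 in the same 3 settings. Without scaling the split was wider, with 32 higher and 127 lower on day 1 and 33 and 124 on day 4. The median change of the 11 was -0.30, -0.63, -0.53 and -0.20 on days 1, 4, 7 and 14, against -0.26, -0.26, -0.32 and -0.37 over all tested miRNAs. miR-26b changed by -1.15 ± 0.10 on day 7 (adjusted p = 6.67e-07) and miR-107 by -1.06 ± 0.12 (adjusted p = 4.33e-06). Both had already fallen on day 4, by 1.04 and 0.85 on the log2 scale, when miR-210 had changed by -0.04 ± 0.15. With other scalings 1 to 5 members of the list, miR-210 counted, passed as higher at some times, the most on day 14 where the percentile covered all miRNAs or nothing was scaled (5 each). Without scaling none passed as higher on days 1, 4 and 7, and more passed as lower on days 1 and 4 (7 and 11).

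The second list held 11 miRNAs reported in human or rodent cells to repress HIF subunits or their regulators, of which 10 were tested. miR-135b was not detected on any array. miR-107 is on both lists, so its calls are counted in each. The list pools repressors of HIF1A with a repressor of a HIF inhibitor, so its counts have no single meaning for HIF. On day 7, 6 were called higher and 4 lower, against 17.3% higher and 45.5% lower over all tested miRNAs, and the list's median change was 0.46. On days 1, 4 and 14 the counts were 4 higher and 4 lower, 5 and 4, and 6 and 3. Over all tested miRNAs 16.9% were higher and 43.7% lower on day 1, and 20.3% and 45.5% on day 4. On day 14 these shares were 16% and 50.6%. miR-31, which represses the HIF inhibitor FIH in human cells, was not detected on any day 0 array and was at least 6.61-fold, 47.9-fold, 40.2-fold and 21.9-fold higher on days 1, 4, 7 and 14, measured against the dimmest detected miRNA of each day 0 array or the floor, whichever was higher. miR-20a, of the cluster that represses HIF1A, rose by 0.77 ± 0.11 on day 7 (adjusted p = 4.13e-05). miR-18a, of the same cluster, was detected on only 1 of 3 day 0 arrays; it passed as higher on day 7 (adjusted p = 1.84e-07), with no exact size given because its day 0 level was mostly not measured. miR-138, also reported to repress HIF1A, fell by 1.69 ± 0.17 (adjusted p = 2.2e-06).

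Likeness in pattern was taken as Pearson r of the log2 level with miR-210 over the 15 arrays, among the other 163 miRNAs detected on all of them, which share each array's scaling. The 5 most alike were miR-183 (r = 0.928), miR-466b (0.916), miR-138 (0.903), miR-185 (0.90) and miR-182 (0.865). On unscaled values these had r of 0.814, 0.810, 0.868, 0.689 and 0.640 and ranked 2, 3, 1, 7 and 14. After quantile normalisation they ranked 3, 6, 2, 9 and 4, while miR-103 ranked 1 (r = 0.905) and miR-107 ranked 5, both members of the hypoxia-raised list. miR-103 also ranked 5 unscaled, so which miRNAs are most alike depended on the scaling. Sequences of 4 of them are shown, with the seed in capitals, to set beside that of miR-210, whose seed none of the 4 has. miR-466b is named only.
rno-miR-183-5p: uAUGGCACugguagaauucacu
rno-miR-138-5p: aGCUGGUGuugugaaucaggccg
rno-miR-185-5p: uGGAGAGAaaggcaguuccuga
rno-miR-182: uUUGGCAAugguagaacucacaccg

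miR-183 and miR-182 are neighbours in the genome, abundant in sensory neurons and transcribed together. miR-183, the first by r, had log2 means of -3.41, -3.21, -3.51, -3.88 and -4.14 on days 0, 1, 4, 7 and 14. miR-466b had means of -4.28, -3.96, -4.16, -5.08 and -5.09, and its fall against day 4, -0.92 ± 0.21 on day 7, also passed (adjusted p = 0.0191). miR-138, abundant in nervous tissue and myelinating glia, was at -1.40 on day 4, against -0.43 on day 0, and passed both there (adjusted p = 0.000215) and between days 4 and 7 (-0.72 ± 0.17, adjusted p = 0.0203). miR-182 changed by 0.998 ± 0.20 on day 1 (adjusted p = 0.000892); its difference from miR-210 there was not tested. On day 7 against day 4, miR-183 (-0.37), miR-185 (-0.35) and miR-182 (-0.66) did not pass.

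**Figure D5:**
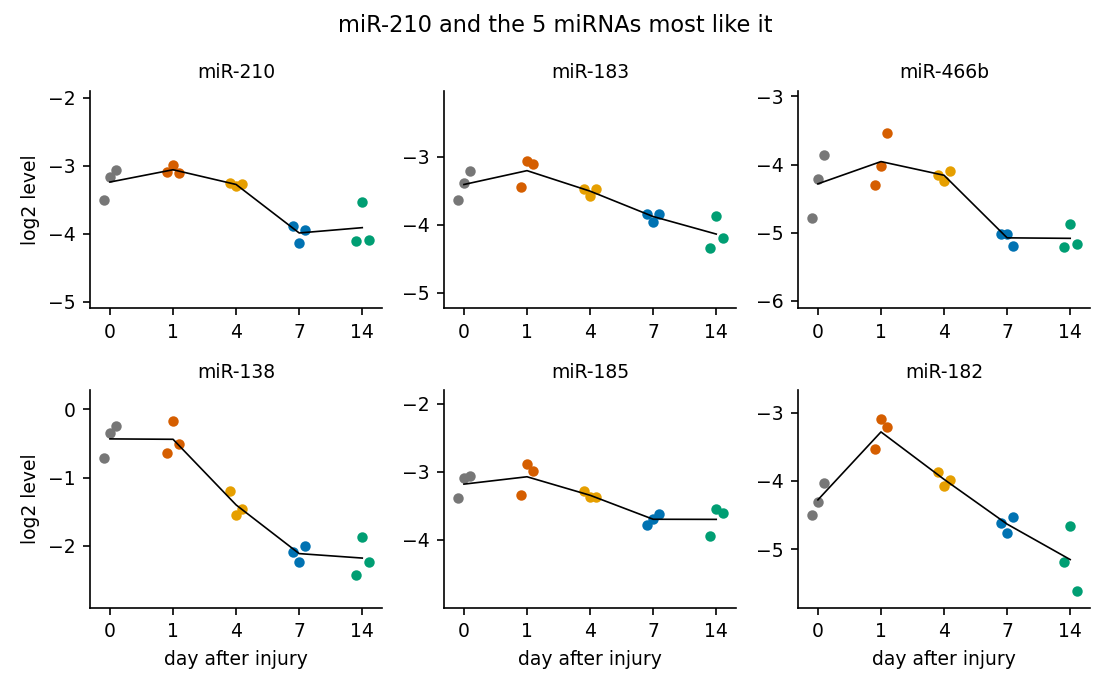
Log2 scaled level of miR-210 and of the 5 miRNAs with the highest r with it, by day after injury (points are arrays, lines join group means; every panel spans the same log2 range). miR-210 goes through -3.24, -3.06, -3.28, -3.99 and -3.91; miR-138 is already low on day 4, and miR-182 has a peak on day 1.

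Marker miRNAs of the other cell types in nerve also differed between groups. The summed scaled level of the myelinating glia list (miR-338, miR-138, miR-204, miR-211 and miR-219-5p) was 1690% to 2592% of the percentile on day 0, 1110% to 1474% on day 1, 874% to 1025% on day 4, 891% to 980% on day 7 and 1029% to 1394% on day 14, with 3 to 5 of 5 members detected. Its member miR-138 is also among the 5 miRNAs most like miR-210. The arrays of each injured day lay below those of day 0, day 1 included, and its day 7 and day 4 arrays overlapped. So did those of days 7 and 4 for the leukocyte list (266% to 295% on day 7, 263% to 299% on day 4) and the endothelium list (277% to 296% and 273% to 301%). They also overlapped for the muscle list (27.0% to 84.9% and 45.2% to 56.0%) and the erythrocyte list. The summed level of the smooth muscle and fibroblast list (miR-143, miR-145, miR-199a-3p and miR-214) was higher on day 7 (882% to 939%, against 764% to 828%). Its dim member miR-145 had a lower log2 mean on day 7 (-3.36, against -3.21) and r = 0.822 with miR-210. For miR-143 the day 7 mean was higher (1.33, against 1.24). The muscle list was at 1629% on day 0 replicate 1, against 73.8% and 124% on the other day 0 arrays. That array also had the lowest day 0 level of miR-210 (8.85%). Without it the miR-210 change against day 0 was 0.052 on day 1 and -0.88 on day 7.

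The erythrocyte list was read by miR-451 and miR-144, 2 of its 3 members. Its summed level was 73.4% to 398% on day 0, 304% to 953% on day 1, 172% to 370% on day 4, 109% to 261% on day 7 and 117% to 137% on day 14, with both members detected on each array of days 0 to 7 and 1 or 2 on those of day 14. Its arrays lay below those of day 1 on days 7 and 14 and below those of day 4 on day 14, as did those of miR-210. In the other pairs where miR-210 passed the arrays of the list overlapped. Those pairs were days 7 and 0, days 14 and 0, and days 7 and 4. The leukocyte list was higher on every injured day than on day 0 (142% to 169% on day 0). The endothelium list (miR-126 and miR-126*) was lower on every injured day, at 218% to 251% on day 1, 273% to 301% on day 4, 277% to 296% on day 7 and 226% to 288% on day 14, against 316% to 345% on day 0. The part of these lists in the change of miR-210 was not tested.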

How the data were processed

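The deposited scanner files hold spot intensity values, background-subtracted by the scanner program (per the file headers, Agilent Feature Extraction, release 10.7.3.1) and not scaled between arrays. Judged from its numbers, the table of values the authors deposited holds log2 levels; how the authors normalised it is not given in the sources used here, and it served as an alternative. Outlier and control spots were left out, and intensities were averaged over spots, then over probes. All values of an array were then divided by the 75th percentile of 164 miRNAs detected on all 15 arrays, values under 0.00362 were set to that floor, and log2 was taken. The 231 miRNAs detected on all 3 arrays of a group were tested with limma 3.58.1 (R 4.3.3) in one model of 5 groups, two-sided, with 10 residual and 3.28 prior degrees of freedom, for 10 pairs and an F test. Tables and figures were made with Python 3.11.15, pandas 2.3.3 and matplotlib 3.10.9. The limma step was tested on simulated data. Arrays lay on 5 slides over 4 scan dates, and 3 arrays per group limit the precision. Alternatives covered scaling, background correction (normexp on the median spot signal, the files have no column of mean signals), signal, filter, slide, replicate number and left-out arrays. Named miRNAs were miR-210, 6 list members with the smallest adjusted p and the 5 most alike. Members of the marker lists were named beside them. miR-210 and the lists were chosen with earlier results of these data known. Replicate numbers did not pair arrays: over 30 same-numbered pairs the correlation of deviations ran from -0.78 to 0.59.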

Additional observations from a re-analysis of the deposited data

How the results depend on the processing

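Over 264 re-estimates of the 10 pairs of groups, 245 kept their direction and their side of the threshold. Many of the 264 could not change the direction. Leaving out an array of neither group mostly left the log2 change as it was, as for day 7 minus day 4 (-0.71). Using no detection filter, adding the replicate block or fitting a pair alone left it unchanged too. Where the change was fixed in this way, only its standard error and adjusted p could move. The count of 245 is therefore no measure of how stable the direction is. Day 7 against day 0, day 7 against day 1 and day 14 against day 1 passed under every alternative run. Where the percentile covered all miRNAs, day 1 minus day 0 was 0.36 and passed, day 4 minus day 0 reversed to 0.28 and day 14 minus day 0 was -0.31 and did not pass. With quantile normalisation day 1 minus day 0 (0.32) and day 4 minus day 1 (-0.33) passed, as they did in the deposited value table (0.43 and -0.46). Without scaling, day 14 minus day 0 (-0.29) and day 14 minus day 4 (-0.10) did not pass and day 14 minus day 7 (0.36) did. With the software's total signal, day 7 minus day 4 (-0.71) did not pass and day 14 minus day 7 reversed to -0.115. Leaving out each array in turn gave 0.052 to 0.39 for day 1 minus day 0, -0.16 to 0.11 for day 4 minus day 0, -0.76 to -0.64 for day 7 minus day 4 and -0.11 to 0.18 for day 14 minus day 7. With the replicate block, day 7 minus day 0 was -0.75 (adjusted p = 0.00113), and no call of miR-210 changed; same-numbered arrays did not deviate together, and 5 of 15 arrays correlated best with their own number. Of all tested miRNAs, 14 passed on day 7 against day 4, 34 did with quantile normalisation, 31 without scaling, 22 in the deposited table, 22 where the percentile covered all miRNAs, 6 with normexp, 23 within 1 scan date (an alternative chosen after seeing the data), 74 with days 7 and 4 alone, and as few as 5 with 1 array left out. Without scaling 146 passed on day 14 against day 4, 59 with normexp and 89 in the chosen setting; on day 14 against day 7, 32 passed in the chosen setting, 82 without scaling, 62 where the percentile covered all miRNAs, 21 in the deposited table, 14 within the shared slide and as few as 11 with 1 array left out.

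Of 64 list counts, 45 stayed within 1.5 times. In the list of miRNAs raised by hypoxia, miR-210 counted, against 0 higher at every time in the main setting, those higher on days 1, 7 and 14 numbered 1, 2 and 5 where the percentile covered all miRNAs; on days 1, 4, 7 and 14 they numbered 2, 2, 3 and 3 with quantile normalisation and 2, 2, 2 and 2 in the deposited table; on day 14 they numbered 5 without scaling. Those lower, against 5 on day 1 and 6 on day 14, numbered 3 on day 14 where the percentile covered all miRNAs and without scaling, and on day 1 they numbered 2 in the deposited table and 3 with quantile normalisation. Without scaling more were lower on day 1 (7, against 5) and on day 4 (11, against 9). In the HIF list on day 1, against 4 higher and 4 lower, 2 were lower in the deposited table and with quantile normalisation, and 2 were higher without scaling. The cause of these changes was not tested. The intensity of miR-210, 36.9 to 73.2, and 3 arrays a group limit how small a change can be seen.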
